A study of Mus musculus with 2 samples.

Results

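The genes described here encode the nuclear subunits of respiratory complexes I to IV, cytochrome c and the ATP synthase (complex V), together with assembly factors whose symbols share those prefixes. They were chosen by name: every probe on both arrays whose RefSeq accession belongs to a mouse nuclear gene with a symbol starting Nduf, Uqcr, Atp5 or Cox followed by a digit, or equal to Sdha, Sdhb, Sdhc, Sdhd, Cyc1 or Cycs. That rule found 140 probes of 104 genes, out of 20654 genes named on the arrays. Complex I had 38 of these genes, complex II 4, complex III 9, complex IV 18 and complex V 17. Cytochrome c had 1 gene and the assembly factors 17. The RNA came from osteoclasts, the cells that resorb bone, grown from bone marrow of female C57BL/6 mice. Marrow cells that did not adhere received the growth factor M-CSF for 2 days, and the adherent monocyte/macrophage precursors were then given RANKL with M-CSF. One group was wild type and the other carried a knockout of Dnmt3a, a de novo DNA methyltransferase, with 1 Cy3 Agilent array each. The allele, the cells in which it was deleted and the number of mice behind each culture are not given in the sources used here.

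The respiratory chain lies in the inner mitochondrial membrane and passes electrons from nutrients to oxygen. Complex I takes electrons from NADH and complex II takes them from succinate, complex III hands them to the small carrier cytochrome c, and complex IV reduces oxygen. Complexes I, III and IV pump protons, and the ATP synthase uses the returning protons to make ATP. Most subunits are encoded in the nucleus, a few in the mitochondrial genome, and osteoclasts are known as cells rich in mitochondria.

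Without replicates, no test across samples was possible, and the values below compare these 2 arrays. Each difference is the log2 signal of the knockout array minus that of the wild type array, after each array was scaled to the 75th percentile of its own spots. The error given with a gene, written SE, is the scanner software's error of its spot on both arrays. For bright genes this error hardly varies, so a count of genes beyond it amounts to a nearly fixed cut. The median error over the chosen genes was 0.20, whereas the median SD between repeated spots of a probe was 0.07 (259 probes). Neither figure covers the variation between cultures. Dnmt3a itself had a signal of 7042 in wild type and 1822 in the knockout, 3.79-fold lower, from its only probe. Among the 13479 genes well above background on both arrays the median difference was 0.01 and the SD 0.37.

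Markers of cell types also differed between the arrays. All 11 osteoclast markers checked were detected on both arrays. The differences of all 11 were below 0 (median -0.58), against 48.1% of all measured genes. The brightest of them, Acp5 (-0.00055) and Ctsk (-0.18), lay within the scanner error. The summed signal of the 11, in units of each array's 75th percentile, was 1989 in wild type and 1729 in the knockout. It is mostly that of Acp5 and Ctsk. Macrophage markers lay above 0 in 8 of 9 genes (summed signal 663 and 773). That sum is mostly the signal of Csf1r (0.10), which lay within the scanner error. Cd68, also on the macrophage list, was not matched to a probe. Neutrophil markers lay above 0 in 9 of 9 genes (386 and 474). Of all measured genes, 51.9% lay above 0. Stromal and osteoblast markers, 8 of 9 measured with Runx2 not well above background, lay below 0 in 5 and above 0 in 3. Their sum, 125 and 81.5, is mostly that of the collagens Col1a2 (-0.70) and Col1a1 (-0.72). Erythroid markers (4 of 6 measured) lay below 0 in 3 and summed to 1.64 and 1.47. Lymphocyte markers (6 of 7, without Cd3g) lay above 0 in 5 of 6 with a median of 0.18, while their sum was 12.3 and 11.3, with Cd5 at -0.68 the only one below 0. These cultures are bulk samples, so fewer cells of a type and less RNA per cell cannot be told apart. The part of these shifts in the results below was not tested.

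Transcripts of the respiratory chain and the ATP synthase were lower on the knockout array by a small amount that was much alike from gene to gene. Of the 104 genes, 100 were well above background on both arrays, and 94 of these 100 lay below 0, against 48.1% of all measured genes. Their median difference was -0.22 (1.16-fold lower), with quartiles at -0.28 and -0.15. The SD among them was 0.15, below the 0.37 of all measured genes and the 0.31 of 1292 other genes of like signal level. Such evenness was not particular to them. The SD was 0.12 for citrate cycle enzymes, 0.16 for mitochondrial and 0.08 for cytosolic ribosomal proteins, but 0.30 for V-ATPase subunits. At least 1.2-fold lower were 31 of the 100, against 17.7% of all measured genes, and at least 1.2-fold higher were 3, against 19.7%. That count of 31 depends on the scaling: it was 52 with quantile normalization (20.6% of all genes), 90 with median scaling (38.0%) and 97 with spike-in scaling (80.8%). None was 2-fold lower (background 0.727%) and none 2-fold higher (background 0.824%). The difference exceeded the scanner error downward in 54 of the 100, against 21.3% of all measured genes. Singly, most of these differences were therefore about the size of that error, and it is the shared direction that stands beside the background.

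**Figure D1:**
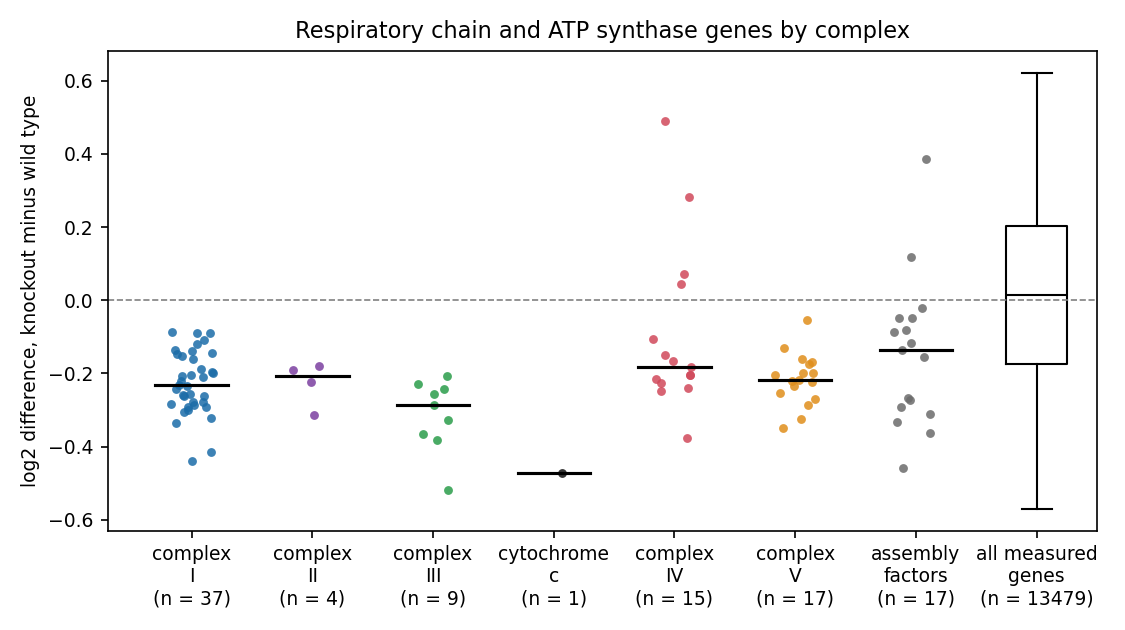
Log2 difference between the knockout and the wild type array for each measured gene (points, 1 probe per gene), grouped by complex, with the median of each group as a bar. The box at the right shows the median and quartiles of all 13479 measured genes, with whiskers at the 5th and 95th percentiles. The 4 points above 0 in complex IV are Cox6a2, Cox6b2, Cox4i2 and Cox7a2l.

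These genes are mostly bright, so they were set beside genes of like signal. All measured genes were divided into 10 equal bins by signal level. In the brightest bin, which held 72 of the 100, 71 of the 72 lay below 0 with a median of -0.22. The other 1276 genes in that bin had a median of 0.06, and 36.0% of them lay below 0. Between the quartiles of the chosen genes' own level, all 50 lay below 0, against 43.0% of the 1292 other genes there. Of the 6740 genes at or above the median level, 47.1% lay below 0 and 13.9% were at least 1.2-fold lower, as were 12.2% of the 1292. At least 2-fold lower were 0.104% of the 6740 and 0.0% of the 1292, so that a count of 0 among the respiratory genes does not set them apart from genes of like level. At least 2-fold higher were 0.401% and 0.464%. No spot on either array was saturated. Scaling to the 8 spike-in probes instead lowered every difference by 0.53. The median of the respiratory genes then stood at -0.75 and that of all measured genes at -0.52. The difference of these medians, -0.23, is necessarily the same under both scalings, since the change moves all genes alike. The sign of a positive difference smaller than that shift thus depends on which of these scalings is used, whereas a difference below 0 stays below 0. Values here are set against each array's own 75th percentile.

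**Figure D2:**
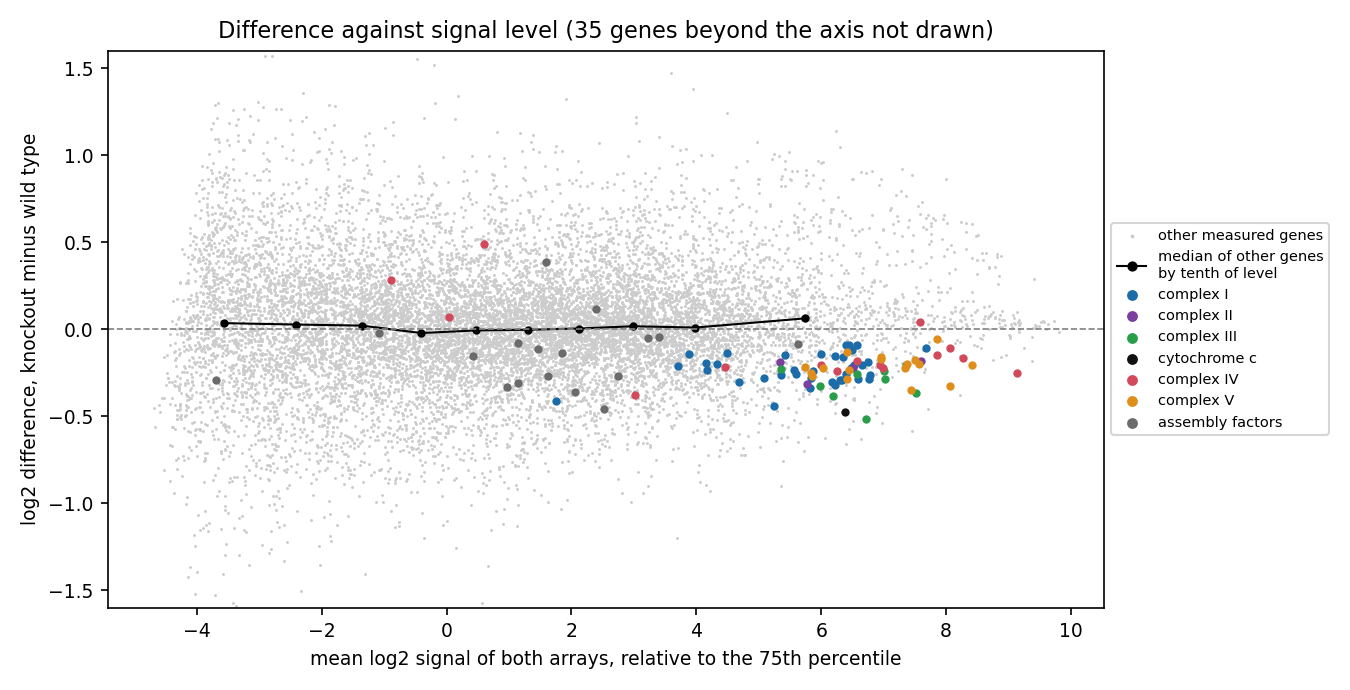
Log2 difference (vertical) against the mean log2 signal of both arrays relative to the 75th percentile (horizontal). Grey points are the other measured genes, the black line joins their medians in 10 bins of level, and coloured points are the respiratory chain genes. Most coloured points lie at the bright end and below the line, which rises to 0.06 there.

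Complex I, the NADH dehydrogenase, had 37 of 38 genes measured, and all 37 lay below 0, from -0.44 to -0.09. The median was -0.23, and 12 of the 37 (32.4%) were at least 1.2-fold lower, against 17.7% of all measured genes. Ndufa4l2, a paralog of Ndufa4, was not well above background on either array. The 7 nuclear core subunits, which carry the flavin and the iron-sulfur clusters or the quinone site, had a median of -0.28, and the 30 accessory subunits one of -0.21. The difference between those medians was not tested.

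Among the core subunits, Ndufs1, the largest iron-sulfur protein of the complex, was lowest. Its signal was 25673 in wild type and 18551 in the knockout, a difference of -0.44 (SE 0.20), at the 8.63 percentile of all measured genes. Ndufs3 followed with 48778 and 38265 (-0.32). Ndufv1, which binds NADH and the flavin, gave 61820 and 49757 (-0.28), and its partner Ndufv2 gave 36789 and 29705 (-0.28). Ndufs7, which carries the cluster nearest to the quinone, stood at -0.26. Ndufs8, a further iron-sulfur protein, gave -0.14. The core subunits named here were thus all lower on the knockout array.

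In the accessory set, Ndufab1, the mitochondrial acyl carrier protein, was lowest, with 2268 in wild type and 1667 in the knockout (-0.41, SE 0.20). Ndufa4 came next (36924 and 28668, -0.34). Its protein is now placed with complex IV by many authors, and it is counted here by its symbol. At the other end stood Ndufa2 (52422 and 48324, -0.09) and Ndufv3 (57041 and 52554, -0.09), both within the scanner error. A dimmer probe of Ndufv3 gave 0.04. The main probe of Ndufb11 gave -0.09 and its dimmer probe 0.27, so its probes disagree in sign.

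**Figure D3:**
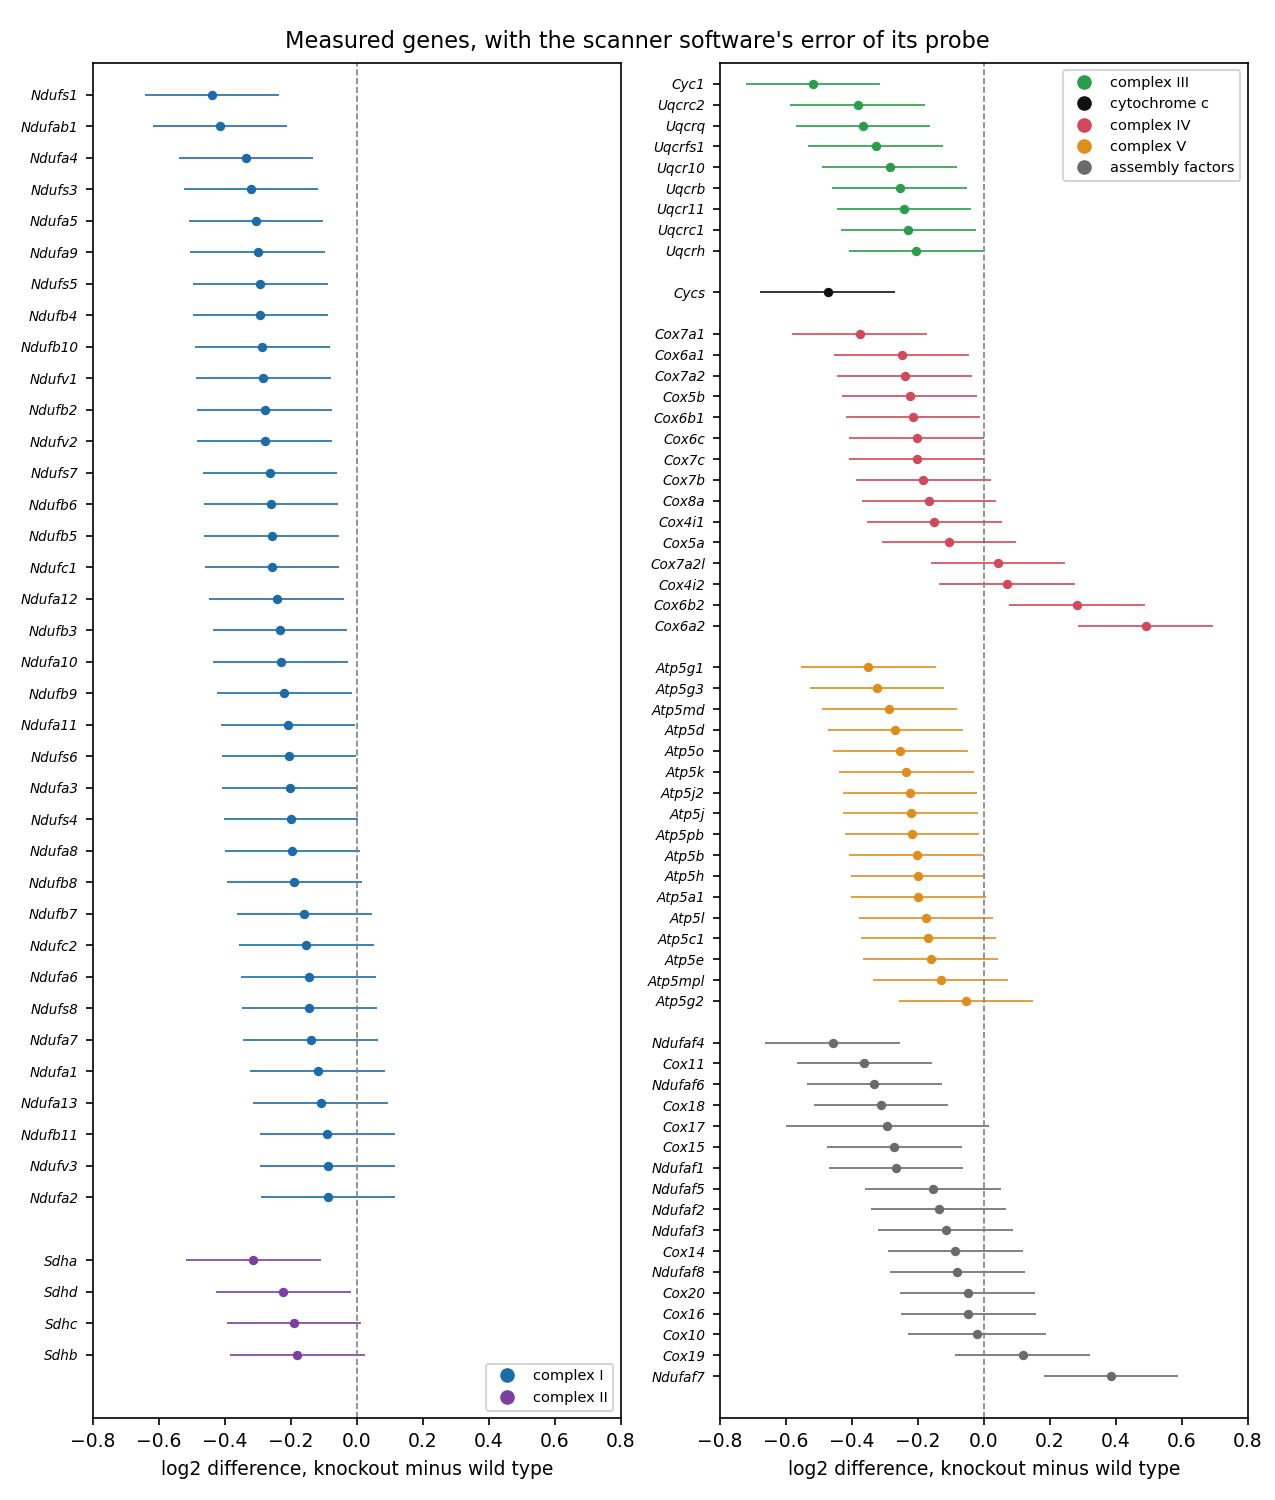
Log2 difference of 99 of the 100 measured genes, in order within its complex, with bars for the scanner software's error of its probe (median 0.20). Complexes I and II fill the left panel, with no point above 0, and the right panel shows the 6 genes above 0 among complex IV and the assembly factors.

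Complex II, succinate dehydrogenase, which also works in the citrate cycle, had all 4 genes below 0 with a median of -0.21. Sdha, the flavoprotein, gave 35617 in wild type and 28068 in the knockout (-0.31, SE 0.20). Sdhb, the iron-sulfur subunit, gave 119746 and 103553 (-0.18), with a dimmer probe at -0.34. The membrane anchors Sdhc (-0.19, dimmer probe -0.28) and Sdhd (-0.22) lay between them. With the dimmer probes standing for the genes, the median of complex II was -0.30.

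Complex III, the cytochrome bc1 complex, had all 9 genes below 0. At least 1.2-fold lower were 5 of 9 (55.6%), against 17.7% of all measured genes. The median was -0.29. This was the lowest median of the complexes with the brightest probe of each gene, whereas with the dimmest probe complex II (-0.30) lay below complex III (-0.28). Each of the 9 differences exceeded the scanner error downward, against 21.3% of all measured genes. Cyc1, the heme protein that passes electrons to cytochrome c, was the lowest of the 100 genes by their brightest probes. By the mean of a gene's probes Ndufaf4 (-0.59) lay below it, and by the dimmest probe also (-0.72). The signal of Cyc1 was 73822 in wild type and 50505 in the knockout, a difference of -0.52 (SE 0.20, 1.43-fold lower), at the 6.22 percentile of all measured genes. Uqcrc2, a core protein of the complex, is the only member with repeated spots, 10 on each array. Before scaling, those spots ranged from 47012 to 50714 in wild type and from 35058 to 37784 in the knockout. They share the RNA and the array of their genotype and are not replicates. Their differences averaged -0.38 with an SD of 0.03 between spots. Uqcrq (122013 and 92749, -0.37) and Uqcrfs1, the Rieske iron-sulfur protein (41491 and 32392, -0.33), were close to it. Uqcrc1 (-0.23) and Uqcrh (103002 and 87478, -0.21) were nearest to 0.

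Cytochrome c, the carrier between complexes III and IV and a trigger of apoptosis when released, is encoded by Cycs. Its brightest probe gave 57094 in wild type and 40288 in the knockout, a difference of -0.47 (SE 0.20, 1.39-fold lower). A further probe gave 12309 and 9170 (-0.39). The remaining probe of Cycs was detected in wild type only. Cyc1 and Cycs, neighbours in the electron path, thus had the lowest values of the set by their brightest probes.

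Complex IV, cytochrome c oxidase, was less even. Of its 18 genes 15 were measured, 11 of the 15 lay below 0, and the median was -0.18. Several of its subunits exist as paired isoforms of which 1 is widespread and the other typical of muscle, testis, lung or other tissues. Without those tissue isoforms, 10 of 11 lay below 0, between -0.25 and 0.04, with a median of -0.20. Cox4i1, the widespread form of subunit 4, gave 141742 and 125122 (-0.15). Cox5a gave 161338 and 146883 (-0.11), and Cox5b gave 80026 and 67079 (-0.22). The lowest widespread form was Cox6a1 (356569 and 294015, -0.25, SE 0.20).

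Of the 8 tissue isoforms on the arrays 4 were measured, all in complex IV. Above 0 lay 3 of the 4, against 51.9% of all measured genes, and 4 genes are too few to set apart from that share. Cox6a2, the heart and muscle form, gave 742 in wild type and 1021 in the knockout (0.49, SE 0.20), beside -0.25 for Cox6a1. Cox6b2, the testis form, gave 285 and 340 (0.28), beside -0.21 for Cox6b1. Both were positive under every scaling except the spike-in probes, which put them at -0.042 and -0.25. Cox4i2, the lung form, gave 588 and 605 (0.07), within the scanner error, beside -0.15 for Cox4i1. Cox7a1, a heart and muscle form, was lower, as its widespread counterpart was, with 5361 and 4046 (-0.38), beside -0.24 for Cox7a2. Its spot lies in a corner of the array, given with its values below. Cox7b2, Cox8b and Cox8c were not well above background on either array, whereas their widespread counterparts Cox7b (59159 and 51056, -0.18) and Cox8a (191830 and 167533, -0.17) were bright. Cox7a2l gave 110502 and 111554 (0.04), and its other probes gave -0.00 and -0.06. With 75th percentile scaling it was the only subunit above 0 that is not a tissue isoform. Its sign turned under several other settings, at -0.04 with quantile normalization, -0.15 with median scaling, -0.49 with spike-in scaling, -0.01 for the mean of its probes and -0.06 for its dimmest probe. All 3 probes lay within the scanner error.

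Complex V, the ATP synthase, had all 17 genes below 0, from -0.35 to -0.05, with a median of -0.22. At least 1.2-fold lower were 4 of 17 (23.5%), near the 17.7% of all measured genes. The 5 genes of the F1 head, where ATP is made, had a median of -0.20, and the 12 of the membrane part and stalk one of -0.22. Atp5b, the catalytic beta subunit, gave 214690 in wild type and 182612 in the knockout (-0.20, SE 0.20). Atp5a1, the alpha subunit, gave 103194 and 88071 (-0.20). The central stalk genes Atp5c1 (-0.17), Atp5d (-0.27) and Atp5e (-0.16) bracketed them. Atp5mpl (52200 and 46688, -0.13), which encodes a small associated protein, was near the high end. The 5 genes of the head thus lay between -0.27 and -0.16.

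The c-ring, the rotor that protons turn, is encoded by 3 genes whose mature proteins are identical and whose targeting peptides differ. They were the extremes of complex V. Atp5g1 gave 114669 in wild type and 88152 in the knockout (-0.35, SE 0.20), and Atp5g3 gave 174996 and 136989 (-0.32). Atp5g2 gave 137069 and 129338 (-0.05), with a further probe at -0.02. Atp5g1 and Atp5g3 were lower by more than the scanner error, and both probes of Atp5g2 lay within it.

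To show what lies upstream of these genes, the 150 bases before the annotated start are given for the 3 c-ring genes, for Cycs, and for Cox7a2l. Cycs stood near the low end of all the genes, and the c-ring genes at the ends of complex V. Cox7a2l was the highest of the subunits that are not tissue isoforms. No promoter window was listed for Cyc1, the lowest gene by its brightest probe. The sequences are from RefSeq on GRCm38.p6, all on the minus strand and written 5′ to 3′. Capitals mark matches on either strand to 6 short motifs: the NRF1 core GCATGCGC, the GABP/ETS motif CGGAAG, the YY1 motif AAGATGGC, the ERR motif TCAAGGTCA, the NFY motif CCAAT and the SP1 motif GGGCGG. Cycs lies at chr6:50566570-50566719, Atp5g1 at chr11:96075632-96075781, Atp5g2 at chr15:102671048-102671197, Atp5g3 at chr2:73911327-73911476 and Cox7a2l at chr17:83514334-83514483.
Cycs: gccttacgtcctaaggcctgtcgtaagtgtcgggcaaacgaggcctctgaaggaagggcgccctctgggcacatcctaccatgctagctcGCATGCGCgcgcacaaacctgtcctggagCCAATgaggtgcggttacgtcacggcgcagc
Atp5g1: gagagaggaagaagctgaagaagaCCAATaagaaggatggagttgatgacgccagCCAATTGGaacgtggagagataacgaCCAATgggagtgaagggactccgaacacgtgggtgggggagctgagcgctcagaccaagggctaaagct
Atp5g2: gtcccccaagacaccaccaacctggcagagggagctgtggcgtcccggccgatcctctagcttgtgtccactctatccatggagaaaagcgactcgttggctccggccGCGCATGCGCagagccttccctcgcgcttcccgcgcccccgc
Atp5g3: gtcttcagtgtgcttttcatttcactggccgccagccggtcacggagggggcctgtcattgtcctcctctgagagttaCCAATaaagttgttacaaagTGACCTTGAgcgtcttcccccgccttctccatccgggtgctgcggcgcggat
Cox7a2l: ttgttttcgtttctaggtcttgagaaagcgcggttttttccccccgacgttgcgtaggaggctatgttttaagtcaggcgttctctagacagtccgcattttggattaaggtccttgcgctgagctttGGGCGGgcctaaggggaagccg

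Of the c-ring promoters, Atp5g1 and Atp5g3 held NFY matches and Atp5g2 held none in these 150 bases. Atp5g1 had 4 NFY matches between 126 and 65 bases before the start, 2 of which overlap each other. Atp5g2, the gene near 0, had an NRF1 core match on each strand, overlapping, between 42 and 33 bases before the start. Atp5g3 had 1 NFY match and, between 52 and 44 bases before the start, 1 ERR match. Cycs had an NRF1 core match between 60 and 53 bases before the start and an NFY match closer to it, and Cox7a2l had 1 SP1 match. A match describes letters in this window and shows neither binding nor a cause.

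Promoter windows of 300 bases, 250 before and 50 after the start, were listed for 84 of the 104 genes (90 windows). The NRF1 core stood in 14.4% of these windows, against 4.66% of the 13681 windows of genes measured on both arrays and 2.71% of all 32851 windows listed. The YY1 motif stood in 14.4%, against 4.03% and 2.75%, and the GABP/ETS motif in 45.6%, against 28.1% and 16.9%. The ERR motif was rare in each, at 2.22%, 0.285% and 0.423%. The NFY motif stood in 43.3%, against 37.6% and 37.4%. The SP1 motif went the other way beside measured genes, at 47.8% against 58.5%, with 35.7% of all windows. Median GC content was 59.0% in the respiratory windows and 60.0% in those of measured genes. These NRF1, GABP/ETS, YY1 and ERR motifs are those of factors long known to act on respiratory genes, and no test of the shares was made.

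Assembly factors, the proteins that build the complexes without staying in them, spread more widely. All 17 were measured, 15 of 17 lay below 0, and the median was -0.14 with an SD of 0.20. At least 1.2-fold lower were 7 of 17 (41.2%), against 17.7% of all measured genes. Ndufaf4, which builds complex I, was lowest, with 3932 in wild type and 2804 in the knockout (-0.46, SE 0.20), and its dimmer probe stood at -0.72. Cox11, a copper chaperone for complex IV, gave 2740 and 2089 (-0.36). Ndufaf6 (-0.33) and Cox18 (-0.31) followed. Cox17, a further copper chaperone, gave 50.2 and 40.2 (-0.29, SE 0.31), close to background, so that value is uncertain.

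At the high end, Ndufaf7, a methyltransferase needed to build complex I, gave 1538 and 1968 (0.39, SE 0.20, 1.31-fold higher), and -0.15 with spike-in scaling. Cox19, a copper handling protein, gave 2936 and 3122 (0.12). Probes disagreed in sign for Cox15 (-0.27 and 0.10), a heme A synthesis enzyme, and for Cox16 (-0.05 and 0.29). The 3 genes at least 1.2-fold higher, Ndufaf7, Cox6a2 and Cox6b2, all have spots in array rows 1 to 128. All measured genes in those rows had an SD of 0.42, against 0.35 in the other rows. At least 1.2-fold higher were 917 of 4584 genes in rows 1 to 128 and 1740 of 8895 in the other rows, a like share. The part of position in the values of Ndufaf7, Cox6a2 and Cox6b2 was not tested.

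Further probes of the same genes allow a check within each array. Of the genes, 26 had more than 1 probe well above background on both arrays, 59 probes in all. Of the 59, 54 lay below 0, against 47.3% of all named probes, but the 59 include the brightest probes already counted above. Of the 33 further probes alone, 29 lay below 0, with a median of -0.19. For 21 of the 26 every probe was below 0. In 5 the probes differed in sign: Cox7a2l, Ndufv3, Cox16, Ndufb11 and Cox15. The median distance between the highest and the lowest probe of a gene was 0.08, and the largest, for Cox15, was 0.38. The 5 probes of Atp5l, a membrane subunit of complex V, lay between -0.20 and -0.17. Probes of 1 gene share the RNA and the array and are not replicates.

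Array position was also examined. In rows 1 to 128, 40 of 43 differences were below 0 (median -0.20), against 49.6% of all measured genes there. In the other rows 54 of 57 were (median -0.22), against 47.4%. The corner formed by rows from 257 and columns from 145 held 4 genes, among them Cox7a1 and Sdhc, with differences from -0.38 to -0.19. The RefSeq table holds 23 further nuclear genes under the same naming rule that no probe here matched, 20 of them pseudogenes. Whether probes also bind transcripts of such copies was not tested, and genes with near-identical copies are uncertain to that extent.

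Other genes of the pathway came from a list drawn up by function. Of 32 measured further assembly factors, 26 lay below 0, against 48.1% of all measured genes, with a median of -0.12. At least 1.2-fold lower were 8 of 32 (25%), near the 17.7% of all measured genes, and none was at least 1.2-fold higher, against 19.7%. Sco1, a copper chaperone of complex IV, gave 488 and 337 (-0.50), and Ecsit, which builds complex I, gave 16512 and 11741 (-0.46). Surf1, also for complex IV, was highest (5040 and 5868, 0.25), followed by Coa5 (0.20).

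Of 17 measured nuclear regulators of respiratory genes, 12 lay below 0, against 48.1% of all measured genes, with a median of -0.10. At least 1.2-fold lower were 4 of 17 (23.5%), near the 17.7% of all measured genes, and 1 was at least 1.2-fold higher, against 19.7%. Ppargc1b, a coactivator of mitochondrial biogenesis, was lowest, with 2539 in wild type and 1735 in the knockout (-0.52, SE 0.20). Lrpprc, which stabilises mitochondrial messenger RNA, gave 15896 and 11949 (-0.38). Esrra, the receptor that binds the ERR motif, gave 27051 and 22754 (-0.22). Nrf1 (-0.01), Gabpa (-0.01), Yy1 (0.03) and Tfam (0.05) lay within the scanner error. At the high end were Polg2 (0.27) and Slirp (0.22), and Ppargc1a was not well above background. No probe was matched to a gene of the mitochondrial genome, so the subunits encoded there were not analysed here.

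Gene groups measured on the same arrays give the setting of these values. Of all measured genes, 48.1% lay below 0. All 13 enzymes of the citrate cycle other than complex II lay below 0, with a median of -0.38. Mitochondrial ribosomal proteins lay below 0 in 64 of 77, with a median of -0.11. Subunits of the V-ATPase, the proton pump of osteoclast acid secretion, had a median of -0.19 over 17 genes, but with an SD of 0.30 and 4 of 17 above 0. Cytosolic ribosomal proteins went the other way, with 15 of 82 below 0 and a median of 0.06. These groups were chosen after their values were seen, and differences between them were not tested.

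**Figure D4:**
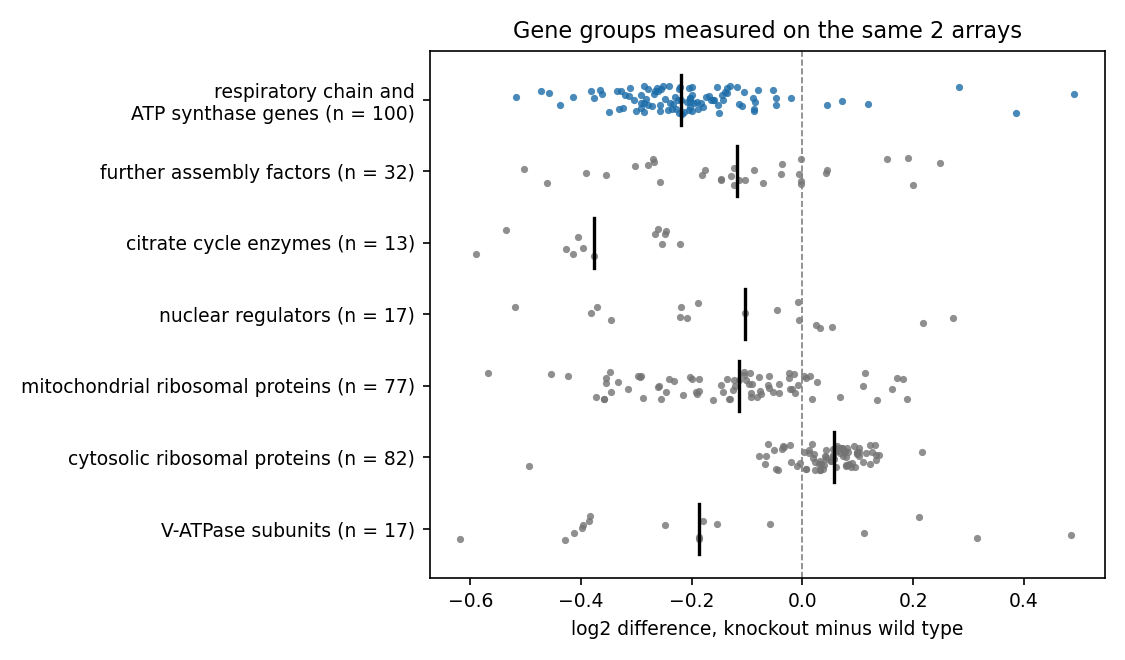
Log2 difference between the knockout and the wild type array for the measured genes of 7 groups (points, 1 probe per gene, with numbers of genes in the labels), with each median as a bar. The respiratory genes centre on -0.22, the citrate cycle enzymes on -0.38 and the cytosolic ribosomal proteins on 0.06.

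**Figure D5:**
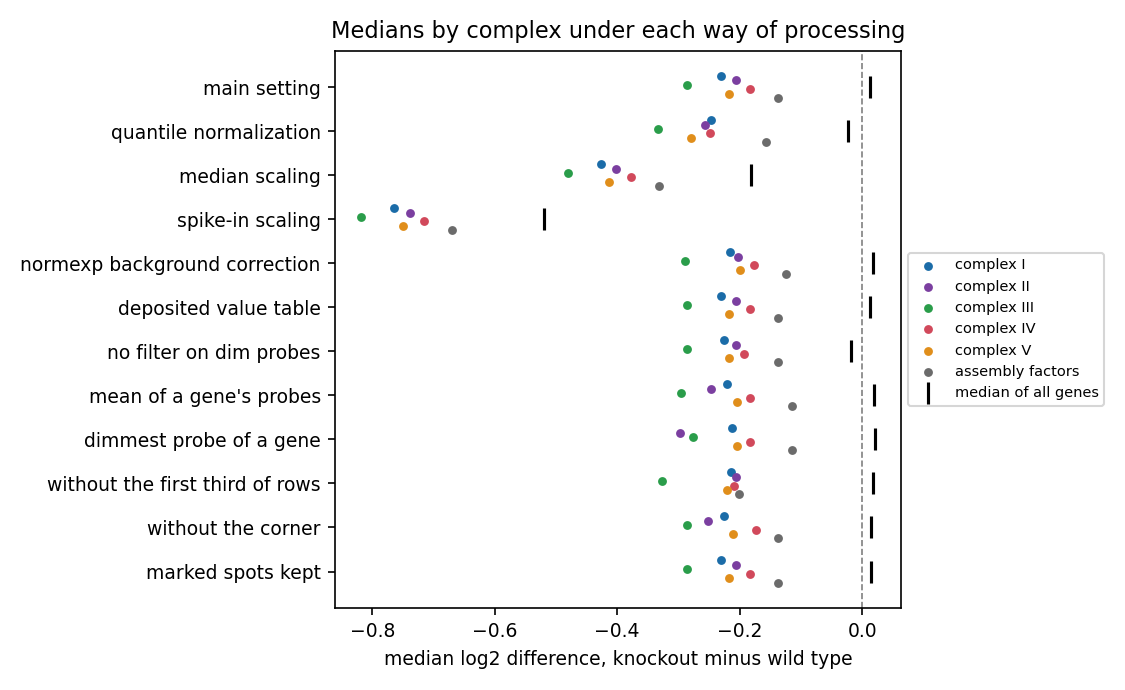
Median log2 difference of each complex (coloured points) and of all measured genes (black ticks) under the main setting and 11 other ways of processing. Every point lies to the left of its tick, and both move together with median or spike-in scaling, which shift all genes alike.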

How the data were processed

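The processed intensity used here was made by the authors with Agilent Feature Extraction 10.10.1.1, per the file headers, which list background subtraction and detrending and an annotation on mm9; the submitters' processing notes name version 9.1. No scaling between the arrays had been applied. Deposited marks (other columns) state whether a spot is well above background, uneven or an outlier. The deposited value table is the same intensity times 1 factor per array (1.55 and 1.54).

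The signal was divided by each array's 75th percentile over 59305 non-control spots (584 and 572) and taken as log2. Marked spots were left out and spots of a probe averaged. Well above background were 52.7% of spots in wild type and 59.7% in the knockout. Probes were named by accession through the RefSeq table of GRCm38.p6 (27224 of 55649 probes), and the brightest probe stood for a gene. Called means past 1.2-fold or 2-fold. Normexp used limma 3.58.1 with the median spot signal, since the mean signal planned is not used here. The code was tested on simulated data with Python 3.11.15.

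The genes and lists were chosen with earlier results of these data known. Named by rule were catalytic subunits, the 2 lowest and 2 highest genes of each complex, of the assembly factors and of the 2 other pathway lists, pairs of tissue isoforms, genes whose probes disagree in sign or by over 0.5, and genes detected on 1 array only. Other genes, such as Atp5l, Ndufaf6, Cox18 and Esrra, were named after their values were seen. Citrate cycle, ribosomal and V-ATPase groups were added after the values were seen. Some items are not reported here by name. The number of arrays limits the precision.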

Additional observations from a re-analysis of the deposited data

How the results depend on the processing

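The median of the respiratory genes was negative under all 11 alternatives, from -0.75 to -0.19, and so was the median of each complex and of the assembly factors. It lay below the median of all genes each time, by -0.20 (no filter on dim probes) to -0.25 (quantile normalization) on the log2 scale. Median and spike-in scaling shift all genes by a constant, and the deposited value table differs only by a factor per array. Those settings could therefore not change this distance and are no check of it. Median scaling moved the median of all genes to -0.18 and put the medians at -0.41 (all members), -0.43 (complex I), -0.40 (II), -0.48 (III), -0.38 (IV), -0.41 (V) and -0.33 (assembly factors). Spike-in scaling put them at -0.75, -0.76, -0.74, -0.82, -0.72, -0.75 and -0.67, beside -0.52 for all genes. The dimmest probe of each gene moved complex II to -0.30, below complex III (-0.28). The count at least 1.2-fold lower was 52 of 100 with quantile normalization (20.6% of all genes), 90 with median scaling (38.0%) and 97 with spike-in scaling (80.8%). Without rows 1 to 128, 65 genes remained measured and 62 lay below 0, against 47.3% of all genes. Alternatives for single genes were run for 50 of the members, and of those past 1.2-fold 4 changed sign: Cox15 with its dimmest probe (0.10), and with spike-in scaling Cox6a2 (-0.042), Cox6b2 (-0.25) and Ndufaf7 (-0.15). The cause was not tested beyond the shift each scaling applies. The single spike-in probes ranged from 0.30 to 0.73. No paired analysis was possible because each genotype has 1 array, and no replicate could be left out. Signals near background, as for Cox17, limit what can be said of dim genes.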

Other observations

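Differences of the respiratory genes were also set beside the motifs in their promoter windows. The 13 measured genes with an NRF1 core had a median of -0.21 and the 69 without it -0.22. For the GABP/ETS motif the medians were -0.21 (39 genes) and -0.23 (43 genes), and for the YY1 motif -0.21 (13 genes) and -0.22 (69 genes). Genes with and without the SP1 motif had medians of -0.20 (40 genes) and -0.23 (42 genes), and with and without the NFY motif -0.19 (36 genes) and -0.23 (46 genes). The 2 genes with the ERR motif had a median of -0.27 and the 80 without it -0.22. These pairs of medians were not tested.

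Promoter windows were listed for 4 of the 8 tissue isoforms, Cox6b2, Cox7a1, Cox7b2 and Cox8b, of which Cox7b2 and Cox8b were not well above background. They had a median of 8.5 CpG dinucleotides in 300 bases, between 2 and 10, close to the median of 7 over all windows listed. The other respiratory windows had a median of 20.5, between 5 and 43, and windows of measured genes one of 19. DNA methylation was not measured in this series.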
